A study of Caenorhabditis elegans with 2 samples.

Results

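The cytosolic ribosomal protein genes of Caenorhabditis elegans were described by how they were placed in lists of chromatin regions recovered with CEH-62, a homeobox protein. The set was every protein-coding gene whose symbol begins with rpl-, rps- or rla-, which gave 81 of 19985 protein-coding genes. It holds 47 large subunit genes (rpl), 31 small subunit genes (rps) and 3 genes of the acidic stalk (rla). The mitochondrial ribosomal protein genes (mrpl, mrps) were left out by the rule. Shares for all genes below are over the 19973 protein-coding genes of the nuclear chromosomes.

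The lists came from ChIP-seq, in which DNA that lies beside a tagged protein is recovered from sheared chromatin and sequenced. The material was whole L4 larvae of both sexes from strain OP416, which carries the unc-119 mutation tm4063 on chromosome III. Its transgene wgIs416 encodes CEH-62 (R06F6.6) with GFP-FLAG at the C terminus. There were 2 biological replicates of this single group and 1 control, so no difference between groups could be tested. The promoter that drives the transgene is not stated in the labels. Whole animals were used, so the tissue in which a region was bound cannot be told from these lists.

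Ribosomal proteins are assembled with ribosomal RNA into the large and the small subunit of the ribosome, which together translate messenger RNA. Their genes are short and strongly transcribed in growing animals, because growth needs new ribosomes. Many worm messages receive a spliced leader by trans-splicing, so an annotated gene start can be a splice acceptor that lies downstream of the site where transcription begins. Homeodomain proteins commonly bind DNA with a TAAT core.

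A gene was counted where an entry of a list had its summit (the position the authors give as the entry's highest point) from 1000 bp upstream to 200 bp downstream of the annotated start. Each entry carries a signal, a score from the authors' peak caller whose scale is unstated, and entries were ranked by it within a list, with rank 1 the strongest. The pooled list held 16733 entries and each replicate list 30000 entries, with background regions among them. Absence from a replicate list therefore says only that a promoter was not among its 30000 entries. The depth is unknown, and no counting interval can be set on a signal.

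The regions beside rpl-15, rpl-20 and rpl-5 are shown first. These large subunit genes are among the 4 members with an entry among the 1000 strongest of each replicate. Each run is the 100 bp on either side of the pooled summit, on the strand of the gene and 5′ to 3′, from the ce11 assembly (RefSeq sequence of WBcel235). They lie at chrIV:654743-654943 on the minus strand, chrIV:4750014-4750214 on the minus strand and chrII:8569300-8569500 on the plus strand. The strongest summits of both replicates fall inside the run beside rpl-15. Beside rpl-20 and rpl-5 only that of replicate 2 does. There the replicate 1 summits lie outside the runs, at chrIV:4749992 and chrII:8569544. Capitals mark GGCCTAAA, the core TAAT and the word GAGTGT on either strand.
rpl-15: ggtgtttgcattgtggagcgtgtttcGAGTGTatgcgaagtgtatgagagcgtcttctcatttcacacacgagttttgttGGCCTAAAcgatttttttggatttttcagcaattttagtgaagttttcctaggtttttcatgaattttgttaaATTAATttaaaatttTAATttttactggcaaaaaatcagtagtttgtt
rpl-20: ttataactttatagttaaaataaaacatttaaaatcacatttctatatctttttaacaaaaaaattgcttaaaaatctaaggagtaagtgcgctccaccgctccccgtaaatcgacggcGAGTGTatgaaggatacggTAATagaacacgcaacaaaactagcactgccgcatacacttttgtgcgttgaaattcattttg
rpl-5: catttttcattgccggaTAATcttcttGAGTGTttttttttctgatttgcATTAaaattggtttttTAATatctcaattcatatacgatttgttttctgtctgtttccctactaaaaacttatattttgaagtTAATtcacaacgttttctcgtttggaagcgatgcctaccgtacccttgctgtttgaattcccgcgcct

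The runs beside rpl-15 and rpl-20 lie in intergenic DNA, and the run beside rpl-5 overlaps exons of the non-coding genes F54C9.16 and F54C9.17. Their GC content was 32.3% beside rpl-15, 34.3% beside rpl-20 and 33.8% beside rpl-5. TAAT was present in every run, with 3 matches beside rpl-15, 1 beside rpl-20 and 4 beside rpl-5. The longer homeodomain core TAATTA was found in none of them. GAGTGT was present in all 3 and GGCCTAAA in that of rpl-15. Both words were noticed in the regions of the 4 members after these had been read out, so their presence here is how they were chosen.

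Ribosomal protein genes were listed more often than protein-coding genes at large, in the full pooled list and among its strongest entries. In the pooled list, 41 of 81 members had a summit in the window (50.6%, exact Clopper-Pearson 95% interval 39.3 to 61.9), against 23.6% of all genes. Among the 1000 strongest pooled entries the share was 22.2% (18 members, 13.7 to 32.8), against 2.43%. Among the 5000 strongest it was 37.0% (30 members), against 8.87%. The ratio of the shares was 2.14 in the full list, 4.18 among the 5000 strongest and 9.14 among the 1000 strongest entries, while the difference in percentage points was smallest in the last. These intervals cover counting over genes only, and genes that share an entry are not independent. No test was run on these shares.

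The member share was also the higher in each replicate. In replicate 1, 41 members were listed (50.6%, 39.3 to 61.9), against 36.4% of all genes, and in replicate 2, 60 members were listed (74.1%, 63.1 to 83.2), against 37.8%. Among the 1000 strongest entries, replicate 1 held 10 members (12.3%, 6.08 to 21.5) against 1.84% of all genes. Replicate 2 held 15 members (18.5%, 10.8 to 28.7) against 2.58%. In the full lists the members stood farther from all genes in replicate 2 than in replicate 1.

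Counts that need both replicates were lower. A summit of both replicate lists lay in the window of 34 members (42.0%, 31.1 to 53.5), against 17.5% of all genes. Where summits of both replicates had to lie within 150 bp of each other, the count was 25 members, against 7.98% of all genes. An entry among the 1000 strongest of either replicate, which needs only 1 of them, stood beside 21 members (25.9%, 16.8 to 36.9), against 4.17%. An entry among the 1000 strongest of each replicate stood beside 4 members, rpl-15, rpl-20, rpl-3 and rpl-5 (4.94%, 1.36 to 12.2), against 0.25%. The optimal list, which the authors derived by the irreproducible discovery rate from the ranks in both replicates, held 50 entries. It placed a summit in the windows of 3 members, rpl-15, rps-19 and rpl-20 (3.7%, 0.77 to 10.4), against 0.13% of all genes. Among the 50 strongest entries of a single replicate the count was 1 in replicate 1 (rpl-13), against 0.0751% of all genes. It was 2 in replicate 2 (rpl-35 and rps-19), against 0.0901%. In the optimal list the count was 1 (rpl-15) where the summit had to lie nearest the member's own start, against 0.0951%.

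**Figure D1:**
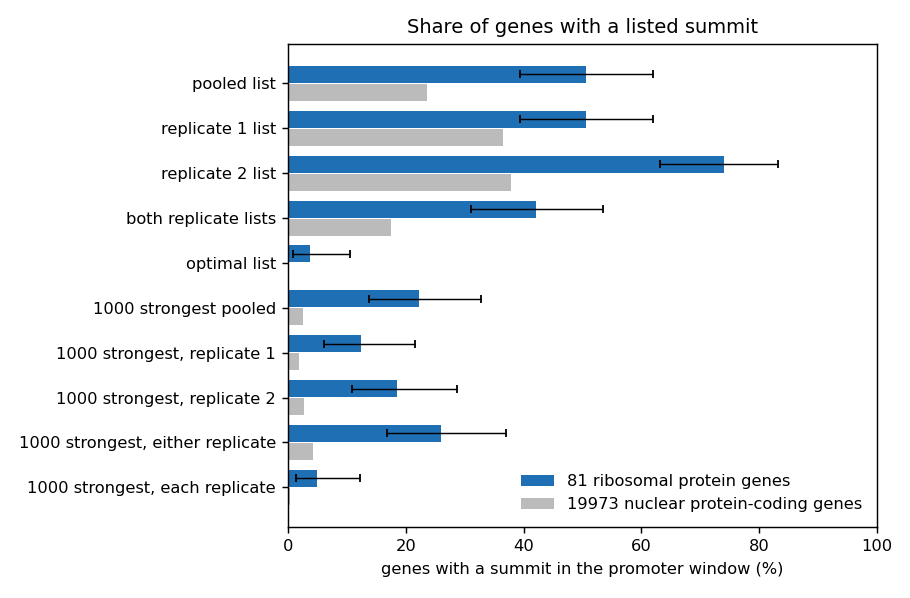
Percentage of genes with a summit in the promoter window, for each list and each set of strongest entries, with blue bars for the 81 ribosomal protein genes (error bars, exact 95% interval) and grey bars for the 19973 nuclear protein-coding genes. The blue bar is the longer in every row, from 50.6% against 23.6% in the pooled list to 4.94% against 0.25% for entries strong in each replicate.

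Of the 47 large subunit genes, 21 had a pooled summit (44.7%) and 8 stood beside one of the 1000 strongest pooled entries. The highest signal of any member belonged to rpl-15 (WBGene00004427, chrIV:653480-654576, minus strand), which encodes a large subunit protein. Its pooled entry had a signal of 53.0 (rank 29) with the summit 267 bp upstream of the start, and the replicate entries had ranks 360 and 54 in replicates 1 and 2. The gene rpl-20 (WBGene00004432, chrIV:4749123-4749778, minus strand) had a pooled signal of 44.2 (rank 42), with ranks 62 and 181. These members were high in both replicates, although the summit beside rpl-20 lay closer to the start of the divergent neighbour Y17G9B.5 (126 bp) than to its own (336 bp).

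The protein of rpl-3 lies by the peptidyl transferase centre, where peptide bonds are formed, and that of rpl-5 binds the small RNA of the large subunit together with the rpl-11 protein, as known from yeast. At rpl-3 (WBGene00004414, chrIII:3867854-3869587, plus strand) the pooled signal was 33.1 (rank 183) at 174 bp upstream, and the strongest replicate entries ranked 718 and 747. The strongest entry of replicate 1 there lay 700 bp upstream and that of replicate 2 at 233 bp, so the ranks did not come from the same spot, although a weaker replicate 1 summit did lie within 150 bp of the pooled summit. At rpl-5 (WBGene00004416, chrII:8569927-8571100, plus strand) the pooled signal was 29.2 (rank 362) at 527 bp upstream, and the replicate ranks were 499 and 651. This summit was nearer to the start of the collagen gene col-38 (312 bp).

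Other large subunit genes were high in 1 replicate. The gene rpl-35 has no protein-coding gene close upstream, its divergent neighbour ZK652.8 being 11497 bp away. Its pooled signal was 37.3 (rank 88), with signal 38.7 (rank 33) in replicate 2. In replicate 1 its strongest entry had signal 8.95 (rank 13549) and lay 649 bp upstream, more than 150 bp from the pooled summit at 451 bp. At rpl-13 the order was the opposite, with rank 44 in replicate 1 (signal 24.3) and rank 4325 in replicate 2 (signal 11.8), and a pooled rank of 404. Pooled rank alone thus did not tell which replicate a member's entry rested on.

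Further members high in replicate 2 alone were rpl-24.1 (rank 297), rpl-32 (rank 314), rpl-12 (rank 480), rpl-6 (rank 652) and rpl-33 (rank 659). Of these, rpl-6 was listed in replicate 1 at rank 18346, with that summit 765 bp upstream against 210 bp in replicate 2. The other 4 were not among the entries of replicate 1. Pooled ranks in this group ran from 655 at rpl-24.1 to 2061 at rpl-6, 3795 at rpl-32 and 6309 at rpl-33. The gene rpl-12 had no pooled summit in its window, although its replicate 2 summit lay 37 bp upstream of the start.

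The short genes rpl-41.1 and rpl-41.2 lie in tandem on chromosome I and encode a very small protein of the large subunit. The pooled summit counted for rpl-41.2 (signal 24.5, rank 1072, replicate ranks 16533 and 1346) lay 589 bp upstream of its start, just beyond the end of rpl-41.1. The summit counted for rpl-41.1 (signal 22.7, rank 1731) lay 527 bp upstream. These were separate entries. How reads from near-identical copies were mapped is not given in the sources used here.

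Of the 31 small subunit genes, 20 had a pooled summit (64.5%) and 10 stood beside one of the 1000 strongest pooled entries. The difference from the large subunit share of 44.7% was not tested. The highest was rps-19 (WBGene00004488, chrI:9625049-9625796, minus strand), whose human counterpart is mutated in Diamond-Blackfan anaemia. Its pooled signal was 45.7 (rank 41) at 329 bp upstream, with rank 1441 in replicate 1 and rank 48 in replicate 2. The summit lay 116 bp from the start of the divergent gene hsr-9, so it was nearer to that gene than to rps-19.

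At rps-1 the pooled signal was 29.4 (rank 349), with ranks 7148 and 1044, and the summit lay in an exon of the non-coding gene F56F3.10. At rps-18 the pooled signal was 28.9 (rank 386), with nearly equal ranks of 2818 and 2814 in the replicates. At rps-23, whose protein lies at the decoding centre, the pooled signal was 28.7 (rank 408) with rank 92 in replicate 1, and no replicate 2 entry had its summit in the window. The members near one another in pooled rank therefore had different replicate support.

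At rps-27 the pooled signal was 28.5 (rank 426), with ranks 9214 and 509, and its summit lay nearer to picd-1 (238 bp) than to rps-27 (510 bp). At rps-25, with a summit 21 bp before the start, the pooled signal was 26.5 (rank 641), with rank 433 in replicate 1 and no replicate 2 entry. At rps-0 the pooled signal was 25.8 (rank 777), with ranks 864 and 15094. The last of these is the worm counterpart of the laminin receptor protein RPSA, a component of the small subunit.

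At rps-5 the pooled signal was 24.8 (rank 982), with ranks 1136 and 12290, and at rps-20 it was 23.1 (rank 1546), with rank 111 in replicate 2 and none in replicate 1. At rps-12 the pooled signal was 23.1 (rank 1559), with ranks 224 and 3926. The genes rps-11 (ranks 204 and 1368, pooled rank 4566) and rps-15 (ranks 11414 and 776, pooled rank 2367) were each among the 1000 strongest entries of 1 replicate. At some of these genes the ranks did not come from the same spot. In replicates 1 and 2 the strongest summits lay 439 and 929 bp upstream at rps-5, 33 and 238 bp at rps-12, and 76 and 462 bp at rps-11. A weaker replicate 2 summit at rps-5 did lie within 150 bp of the pooled summit. Among small subunit genes, none was among the 1000 strongest entries of both replicates.

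The 3 stalk genes encode the proteins of the flexible arm that recruits translation factors to the large subunit. None had a pooled summit. The gene rla-0 was listed in both replicates (ranks 4664 and 8884), with summits at 112 bp and 788 bp upstream. The gene rla-2 was listed in replicate 1 alone (rank 22614), and rla-1 was in no list.

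**Figure D2:**
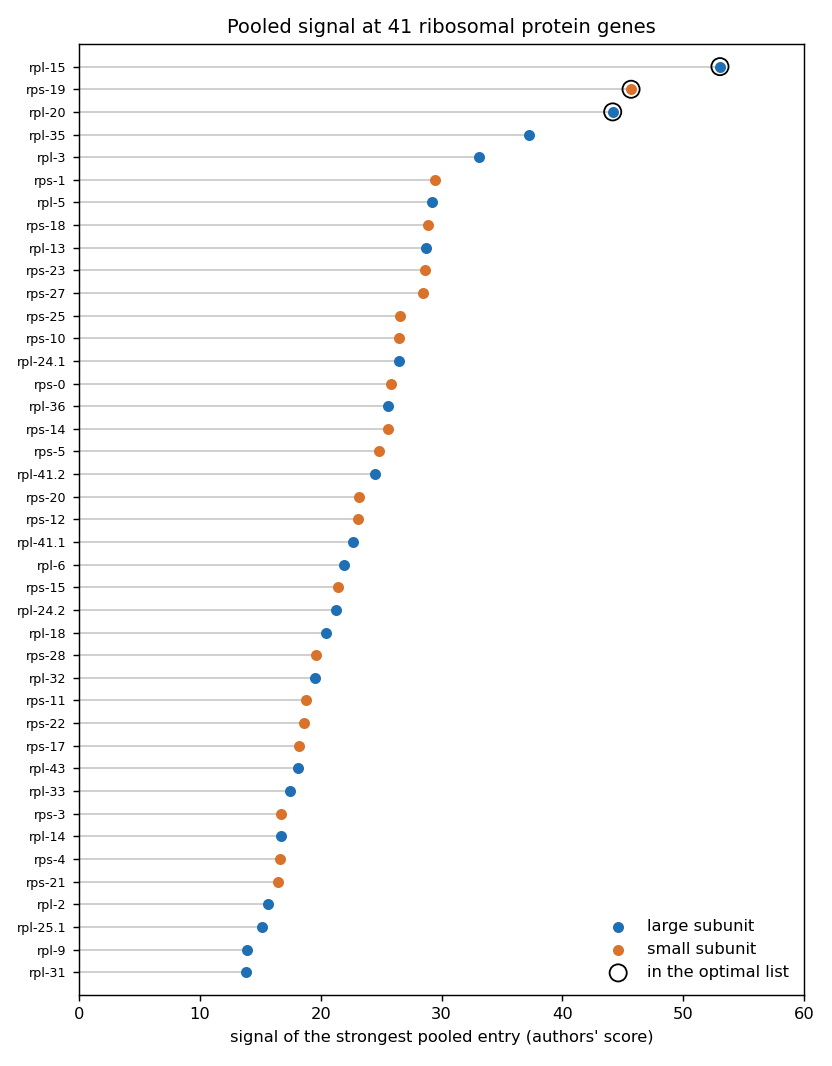
Signal of the strongest pooled entry (the authors' score) at the 41 ribosomal protein genes with a pooled summit in the window, in descending order, coloured by subunit. The rings mark rpl-15, rps-19 and rpl-20, which are in the optimal list and have the 3 highest signals.

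Across the 41 members the strongest pooled entry had a median signal of 23.1 and a median rank of 1559. Over the 4714 nuclear genes with a pooled summit these medians were 17.0 and 7086.5. Members ranged from 13.8 at rpl-31 to 53.0 at rpl-15, inside the range of 13.3 to 101.0 for all genes. The first 3 members had signals of 53.0, 45.7 and 44.2, and the next, rpl-35, had 37.3. At the lower end rpl-9 (rank 14655) and rpl-31 (rank 14706) were near the end of the list.

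Beside the genes already named and the paired genes rps-10, rps-14 and rpl-36 described further on, the pooled list placed summits at rpl-24.2, rpl-18, rps-28, rps-22, rps-17, rpl-43, rps-3, rpl-14, rps-4, rps-21, rpl-2 and rpl-25.1. The pooled ranks of these 12 genes ran from 2464 at rpl-24.2 to 11039 at rpl-25.1. None of the 12 stood beside one of the 1000 strongest entries of a replicate. In the window of rps-3 both replicate entries were near the ends of their lists (ranks 24537 and 29276), and at rpl-24.2 replicate 2 alone listed a summit (rank 1130).

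Every member with a pooled summit had a summit of at least 1 replicate within 150 bp of its strongest pooled summit. Of the 41 strongest pooled summits, 21 had a summit of both replicates within 150 bp (51.2%, against 32.5% over all 4714 genes with a pooled summit). Another 8 were matched in replicate 1 alone (19.5%, against 29.4%) and 12 in replicate 2 alone (29.3%, against 31.2%). None was unmatched, against 6.96% of all genes. The pooled list was called from the same reads, so such matches are not independent of it.

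Counted by windows, the replicates differed in which members they listed. Replicate 2 alone listed 26 members (32.1%, against 20.3% of all genes) and replicate 1 alone listed 7 (8.64%, against 18.9%). Across the 34 members listed in both, Spearman's rho of the strongest signals was 0.273, and across the 3493 genes listed in both it was 0.114. These are descriptions across genes of 2 libraries that share a control, and genes are not replicates. A gene's place in 1 replicate said little about its place in the other, as rpl-13 and rpl-35 show.

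**Figure D3:**
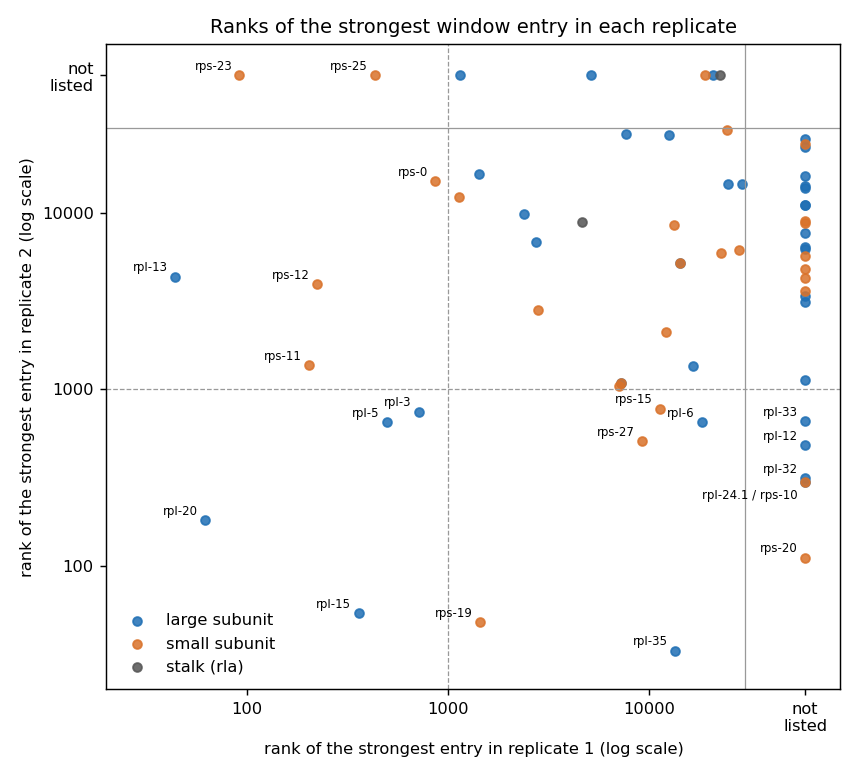
Rank of the strongest window entry in replicate 1 (horizontal, log scale) against replicate 2 (vertical, log scale), 1 point per ribosomal protein gene listed in at least 1 replicate, coloured by class. Dashed lines mark rank 1000 and solid lines rank 30000, beyond which points were not listed in that replicate. Only rpl-15, rpl-20, rpl-3 and rpl-5 lie inside both dashed lines.

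Of the 40 members without a pooled summit, 26 had a summit in a replicate list and 14 did not. Over all genes, 15259 had no pooled summit, and 8480 of these had no replicate summit either. The split by replicate below was counted for members only. Both replicates listed 7 of the 26 members, namely rpl-1, rpl-21, rpl-27, rpl-39, rps-9, rps-30 and rla-0. Replicate 2 alone listed 16, from rpl-12 at rank 480 to rpl-11.2 at rank 26096. The others in this group were rpl-7, rpl-22, rpl-23, rpl-25.2, rpl-29, rpl-34, rpl-36.A, rpl-38, rpl-42, rps-2, rps-16, rps-24, rps-26 and rps-29. Replicate 1 alone listed 3, which were rps-7, rpl-17 and rla-2, at ranks from 18970 to 22614.

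No list placed a summit in the window of 14 members (17.3%, against 42.5% of all genes). They were rpl-4, rpl-7A, rpl-10, rpl-11.1, rpl-16, rpl-19, rpl-26, rpl-28, rpl-30, rpl-37, rps-6, rps-8, rps-13 and rla-1. Among them is rps-6, whose protein is phosphorylated by S6 kinase in mammals. Genes of the same subunit were thus found both at the top of the lists and outside them.

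Summits lay mostly within 600 bp before the annotated start. The median distance was 281 bp upstream over the 41 members (quartiles 184 to 420), against 341 bp over all genes with a pooled summit (quartiles 113 to 643.75). Between 600 and 101 bp upstream lay 34 of 41 member summits (82.9%, against 48.5% of all). Only rpl-18 (718 bp) and rps-28 (794 bp) had summits farther than 600 bp (4.88%, against 28.2%), and 5 members had summits from 100 bp upstream to 200 bp downstream (12.2%, against 23.4%). In the replicate lists the share between 600 and 101 bp was 68.3% in replicate 1 (45.8% of all) and 71.7% in replicate 2 (48.1% of all).

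**Figure D4:**
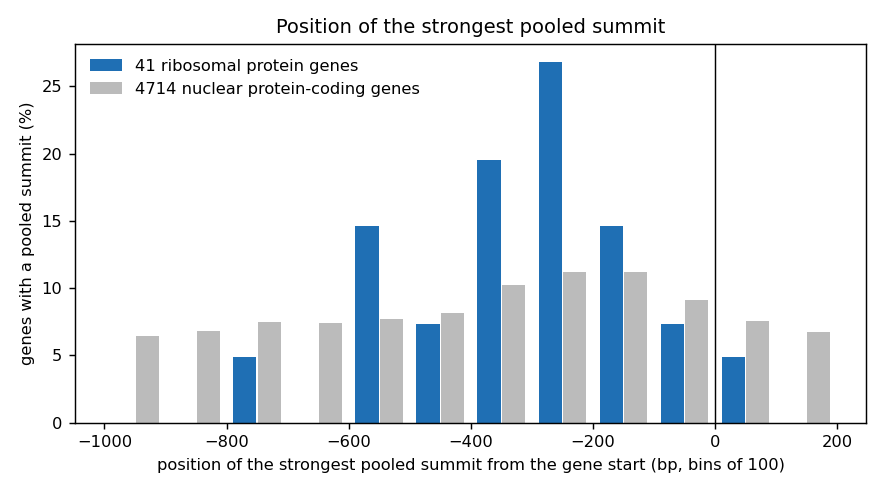
Distance of the strongest pooled summit from the annotated gene start, in bins of 100 bp, as a percentage of the 41 ribosomal protein genes (blue) and the 4714 nuclear protein-coding genes (grey) with a pooled summit. Blue bars are concentrated between 600 and 101 bp upstream, where 82.9% of member summits lie, and grey bars are spread over the whole window.

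The annotated starts of these genes had the sequence of splice acceptors far more often than other starts. AG stood directly before the start at 69 of 81 members (85.2%, against 27.6% of all genes), and TTTCAG, the usual end of a worm intron, at 40 (49.4%, against 12.3%). Distances to the start are therefore distances to the annotated 5′ end, which need not be where transcription begins. Whether this moves the positions was not tested.

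Pooled summits were denser before these genes than within them. In the 1000 bp before the start there were 0.506 summits per kb (41 summits), against 0.219 for all genes. Summits and bases were added up gene by gene, so a summit shared between genes counts for each of them. Members have head-to-head neighbours more often than other genes, and the effect of such sharing on these densities was not tested. Over gene bodies the density was 0.171 per kb (11 summits), against 0.155, and in the 1000 bp after the gene end 0.296 per kb (24 summits), against 0.206. Members are short, with a median annotated length of 754 bp against 2027 bp, so few summits could fall within them. Of the 41 strongest summits, 35 were intergenic, 2 lay in exons of non-coding genes, 1 in the coding exon of rpl-24.2, and 3 in UTRs, which belonged to rps-22 itself, Y45F10D.16 before rpl-18 and glit-1 before rpl-25.1.

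Ribosomal protein genes lie close to their upstream neighbours, which bears on which gene a summit is counted for. Neighbours here are protein-coding genes only. The median gap to the next such gene upstream was 558 bp, against 1058 bp for all genes, and 72 members had a gap under 1000 bp (88.9%, against 45.0%). A head-to-head neighbour, transcribed away from the member, was present at 53 members (65.4%, against 42.2%). For 24 of the 41 strongest summits, genes on both strands had the summit in their windows (58.5%, against 22.7%). Among starts of protein-coding genes, the summit was nearest to the member's own start at 28 of 41 (68.3%), against 82.9% of all genes with a pooled summit. With the starts of all gene types considered, it was nearest to the member's own at 25 of 41. Counting only summits nearest the member's own start, both replicates listed 18 members in place of 34, with all genes at 13.4%.

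In the full pooled list, the share with a pooled summit was nearly the same with either arrangement. It was 27 of 53 head-to-head members (50.9%, against 24.6% of all head-to-head genes) and 13 of 26 tandem members (50%, against 23.2%). By gap, it was 8 of 20 (40.0%, against 28.8%) for head-to-head genes less than 500 bp apart and 16 of 28 (57.1%, against 28.8%) from 500 to under 1000 bp. For tandem members it was 2 of 9 (22.2%, against 25.9%) under 500 bp and 9 of 15 (60%, against 23.9%) from 500 to under 1000 bp. The members closest behind a gene on the same strand were thus listed about as often as other genes of that kind, at a small n. Among the strongest entries the arrangements differed. One of the 1000 strongest pooled entries stood beside 15 of 53 head-to-head members and 3 of 26 tandem members. The shares of all genes by arrangement were not counted at this limit, and the difference was not tested.

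At 3 places the head-to-head neighbour is itself a ribosomal protein gene. The genes rps-10 and rpl-24.1 face away from each other across 609 bp and share a pooled entry with signal 26.5 (rank 655), listed in replicate 2 at rank 297 and absent from replicate 1. Its summit lies 160 bp before rpl-24.1 and 450 bp before rps-10. The genes rps-14 and rpl-36 share an entry with signal 25.6 (rank 819, replicate ranks 7307 and 1090) across 662 bp. The genes rpl-39 and rps-30 share replicate entries (ranks 14278 and 5154) and have no pooled summit. In each pair with a pooled entry, 1 entry gave 2 counted genes, and the 41 members rest on 39 distinct strongest entries.

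By chromosome, the share of members with a pooled summit was 48.0% of 25 on I, 40.0% of 10 on II, 66.7% of 18 on III, 55.6% of 18 on IV, 25% of 8 on V and 50% of 2 on X. The shares of all genes were 29.5%, 22.0%, 32.2%, 24.4%, 19.7% and 17.3% in the same order. The member share was the higher on each chromosome, with few genes on V and X. Of the 13 members that hold a snoRNA gene, 7 had a pooled summit (53.8%), and of the other 68 members 34 did (50%).

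Motif counts near the summits did not set these regions apart by the homeodomain core. Searched on both strands within 100 bp of the 39 distinct summits, TAATTA was in 3 (7.69%), against 12.7% of the 4121 distinct strongest summits of all genes. TAAT, which is contained in TAATTA, was in 36 (92.3%, against 89.2%), and GATAA, the core of GATA factor sites, in 19 (48.7%, against 41.9%). The median GC content was 34.8% in these windows, against 32.3%. A missing match says only that these letters are not in the window.

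In the 250 bp before the start, TAATTA was in 14 of 81 members (17.3%, against 14.5% of all genes). It was in 10 of 41 members with a pooled summit (24.4%) and 4 of 40 without (10%), a difference that was not tested. Over all genes with a pooled summit the share was 15.1%, close to that of all genes. TAAT was in all 81 (93.5% of all genes) and GATAA in 53 (65.4%, against 52.2%). On the gene strand, TATAAA, which is a core promoter element, was in 10 (12.3%, against 22.4%) and TTTCAG in 47 (58.0%, against 30.3%). The median GC content of this stretch was 30.0%, against 33.2% for all genes.

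The word GAGTGT and the word GGCCTAAA, which were noticed in the regions of the 4 members, were then counted in the others. Within 100 bp of the summit GAGTGT was in 5 of the 35 other member summits (14.3%), against 5.63% of all promoter summits, and GGCCTAAA in 2 of 35 (5.71%), against 0.582%. In the 600 bp before the start, GGCCTAAA was in 21 of the 77 other members (27.3%), against 1.96% of all genes. Other members with a pooled summit had it at 6 of 37 (16.2%) and members without at 15 of 40 (37.5%), so the word was not more frequent at the listed genes. Over all 81 members its 26 matches lay at a median of 237.5 bp before the start, 18 of them on the gene strand. GAGTGT was in 24 of the 77 other members (31.2%, against 18.2%), at 10 of 37 with a pooled summit (27.0%) and at 14 of 40 without (35.0%).

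Other gene groups for protein synthesis, turnover and respiration ranged from the level of all genes to that of the ribosomal protein genes in the pooled list. A pooled summit was present at 21 of 42 translation factor genes (50%), against 50.6% of the ribosomal protein genes, and at 27 of 70 mitochondrial ribosomal protein genes (38.6%). It was present at 14 of 33 proteasome genes (42.4%), 8 of 32 aminoacyl-tRNA synthetase genes (25%) and 9 of 41 nuclear-encoded respiratory chain genes (22.0%). Among the 1000 strongest pooled entries the shares were 14.3% for translation factors, 5.71% for mitochondrial ribosomal proteins, 9.09% for the proteasome, 0.0% for the synthetases and 7.32% for the respiratory chain, against 22.2% of ribosomal protein genes. In replicate 1 the full-list shares were 51.4% for mitochondrial ribosomal proteins, 51.5% for the proteasome, 50% for the synthetases, 47.6% for translation factors and 46.3% for the respiratory chain, against 50.6% of ribosomal protein genes and 36.4% of all genes. The members were thus at the level of these groups there. In replicate 2 the shares were 73.8% for translation factors, 69.7% for the proteasome, 58.6% for mitochondrial ribosomal proteins, 51.2% for the respiratory chain and 50% for the synthetases, against 74.1% of ribosomal protein genes. Among the 1000 strongest entries of replicate 1, proteasome genes stood at 12.1%, against 12.3% of ribosomal protein genes, and in replicate 2 at 3.03%, against 18.5%. Translation factors stood at 9.52% and 11.9%, mitochondrial ribosomal proteins at 4.29% and 7.14%, the respiratory chain at 2.44% and 9.76%, and the synthetases at 0.0% and 6.25%. Both replicates listed 38.1% of translation factors, 31.4% of mitochondrial ribosomal proteins, 30.3% of the proteasome, 29.3% of the respiratory chain and 21.9% of the synthetases, against 42.0% of ribosomal protein genes. These lists were not tested against one another. The genes ubl-1 and ubq-2, which encode ribosomal proteins fused to ubiquitin and fall outside the symbol rule, had a pooled summit at 1 of 2.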

How the data were processed

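ChIP-seq lists on ce11 were read for 2 biological replicates, with a pooled and an optimal list. Per the deposited file inventories, the authors called each replicate list from that replicate with 1 control, the pooled list from both replicates, and the optimal list by the irreproducible discovery rate. The signal column holds the authors' peak-caller score as deposited, on an unstated scale. Not given in the sources used here: the aligner, the peak caller and the read numbers. The ce10 lists, the q-value column and the control were not used.

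Summits were assigned to windows of Ensembl 115 gene starts (WBcel235, the same assembly). One start per gene was used. Analyses ran in Python 3.11.15 with pandas 2.3.3, numpy 2.4.6 and scipy 1.17.1, and figures in matplotlib 3.10.9. The assignment was tested on simulated data. With a single group, no test was run, and intervals are exact Clopper-Pearson 95% intervals over genes. The replicates come from 1 strain, and their spread may be technical.

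The members, comparison lists and motifs were chosen with earlier results of these data known. Genes were named if they had an optimal summit, were among the 20 members with the highest pooled signal, or stood beside one of the 1000 strongest entries of a replicate. Others are named to account for every member. Alternatives were other windows, starts, rank limits, overlap rules and single replicates. One sequence is not reported here.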

Additional observations from a re-analysis of the deposited data

How the results depend on the processing

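The values given here are counts of ribosomal protein genes unless stated. The count with a pooled summit (41) became 18 among the 1000 strongest pooled entries (2.43% of all genes). Single-replicate lists cut to equal length gave 32 to 54 (22.5% and 24.3% of all genes). The count listed in both replicates (34) became 20 with a window of 500 bp upstream to 100 bp downstream (7.33% of all genes). It was 18 with summits nearest the gene's own start (13.4% of all genes). Among the 5000 strongest entries of each replicate it was 9 (1.46% of all genes). Among the 1000 strongest of each, a limit chosen after seeing the data, it was 4 (0.25% of all genes). The optimal count (3) became 1 with the nearest-start rule (0.0951% of all genes). In single-replicate lists cut to equal length it was 2 without replicate 1 (0.0901%) and 1 without replicate 2 (0.0751%). TAATTA beside 3 of 41 summits became 9 within 250 bp (27.6% of all promoter summits), and TAAT within 100 bp gave 38. The other 27 values stayed within the set limits of the main value. Among them were pooled counts of 42 with any transcript start (26.5% of all genes) and 44 with any overlap of entry and window (27.8%). Median distances of 290 to 359 bp upstream were also among them. The limit was a fixed fold range for counts and the standard deviation of positions across members for the median distance. For Spearman's rho it was a width set by the number of genes. The last 2 limits are wide, so staying within them says little. In every alternative computed for the gene counts the member share was above that of all genes, with the lowest ratio of shares at 1.66 (both replicates, nearest-start rule). The full replicate 1 list was not among these alternatives and had a lower ratio, with 50.6% of members against 36.4% of all genes. No paired analysis was possible because the study has a single group. Sequencing depth is unknown, so its effect on the lists cannot be stated.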
